A study of Rattus norvegicus with 9 samples.

Results

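The chemokine receptors of monocytes and lymphocytes described here were Ccr2, Cx3cr1, Ccr1, Ccr6, Ccr7, Cxcr3, Cxcr4, Cxcr5 and Cxcr6. They were 9 of the 18166 genes that a single gene symbol identified on the array. They were chosen by name as receptors that steer these blood cells, with earlier results of these data known. Each was measured by 1 probeset carrying its symbol alone. All 9 passed the filter on low values and were among the 14014 genes tested.

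The cells were hepatic macrophages, isolated from the livers of male Sprague-Dawley rats and profiled as total RNA on 9 Affymetrix arrays, each taken as 1 rat. In 3 rats the portal vein had been partially ligated (PPVL, a calibrated narrowing made by tying a ligature over a blunt needle that was then withdrawn) and cells were taken at day 3. In 3 other PPVL rats they were taken at day 10, and 3 sham rats had the vein exposed with no ligature. The day on which sham rats were sampled, the age of the rats and the purity of the isolated cells are not given in the sources used here, so that ligation and time since surgery cannot be told apart.

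Values are log2 intensities, in which a difference of 1 is a 2-fold change, and they are compared between arrays only, never between genes. Means are given with the SD over 3 rats and differences with their standard error (SE). A gene was called where the adjusted p of limma's moderated test (Benjamini-Hochberg over the 14014 genes) was below 0.05. Array medians ran from 5.21 to 5.26 and correlations between arrays over genes from 0.987 to 0.993. The first sham array nevertheless stood apart from the other sham arrays in classical monocyte and neutrophil genes, but not in the 16 macrophage genes tested. Several results that rest on it, but not all, are given with and without it. The cell type was checked by setting the mean of each marker against the filter of 4.16, with no order read between genes: Cd68, Csf1r and Tyrobp of macrophages passed it at 11.17, 10.25 and 11.79. Cd163, Clec4f, Timd4 and Vsig4 of resident Kupffer cells passed it narrowly, at 4.50, 5.03, 4.40 and 4.26. Cd3e of T cells and Cd79a of B cells passed it at 9.48 and 9.14. Only genes past the filter entered the test, so every tested gene of any list had passed it. The 11 natural killer cell genes tested had means of 5.52 to 11.71. Means were 4.40 to 7.91 for 5 hepatocyte genes and 4.35 to 5.72 for 5 endothelial and stellate genes. Passing the filter therefore does not show which cells were present.

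Chemokine receptors are seven-pass membrane proteins that couple to inhibitory G proteins and move a cell up a gradient of its ligand. Ccr2 releases classical monocytes from the bone marrow and Ccr1 guides monocytes within inflamed tissue, while Cx3cr1 is the fractalkine receptor of patrolling monocytes and many tissue macrophages. Ccr6, Cxcr5 and Ccr7 place lymphocytes and dendritic cells in lymphoid and mucosal sites, Cxcr3 and Cxcr6 serve effector T cells and natural killer cells, and Cxcr4 retains many leukocyte types in the marrow. In the injured liver, monocytes that enter through Ccr2 and its ligand Ccl2 add to the resident Kupffer cells.

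At day 3 after ligation, Ccr1 and Ccr2 were higher than in sham rats, about 1.92-fold and 1.81-fold, and at day 10 Ccr6 was higher, 1.70-fold. These were 2 of 9 members called at day 3, both upward, where 2.86% of all tested genes were called, 2.15% upward and 0.714% downward. They were 1 of 9 at day 10, where 0.735% of genes were called, 0.492% upward and 0.243% downward. Because each sample is a bulk preparation, a change in the number of cells of a type and a change in RNA per cell cannot be told apart in any of these differences. The median difference over the 9 receptors was 0.22 at day 3 and 0.33 at day 10, beside -0.01 and -0.00 over all tested genes. Since the receptors and gene lists were chosen with earlier results known, such shares and medians describe them and test nothing. Both comparisons used the same 3 sham arrays.

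**Figure D1:**
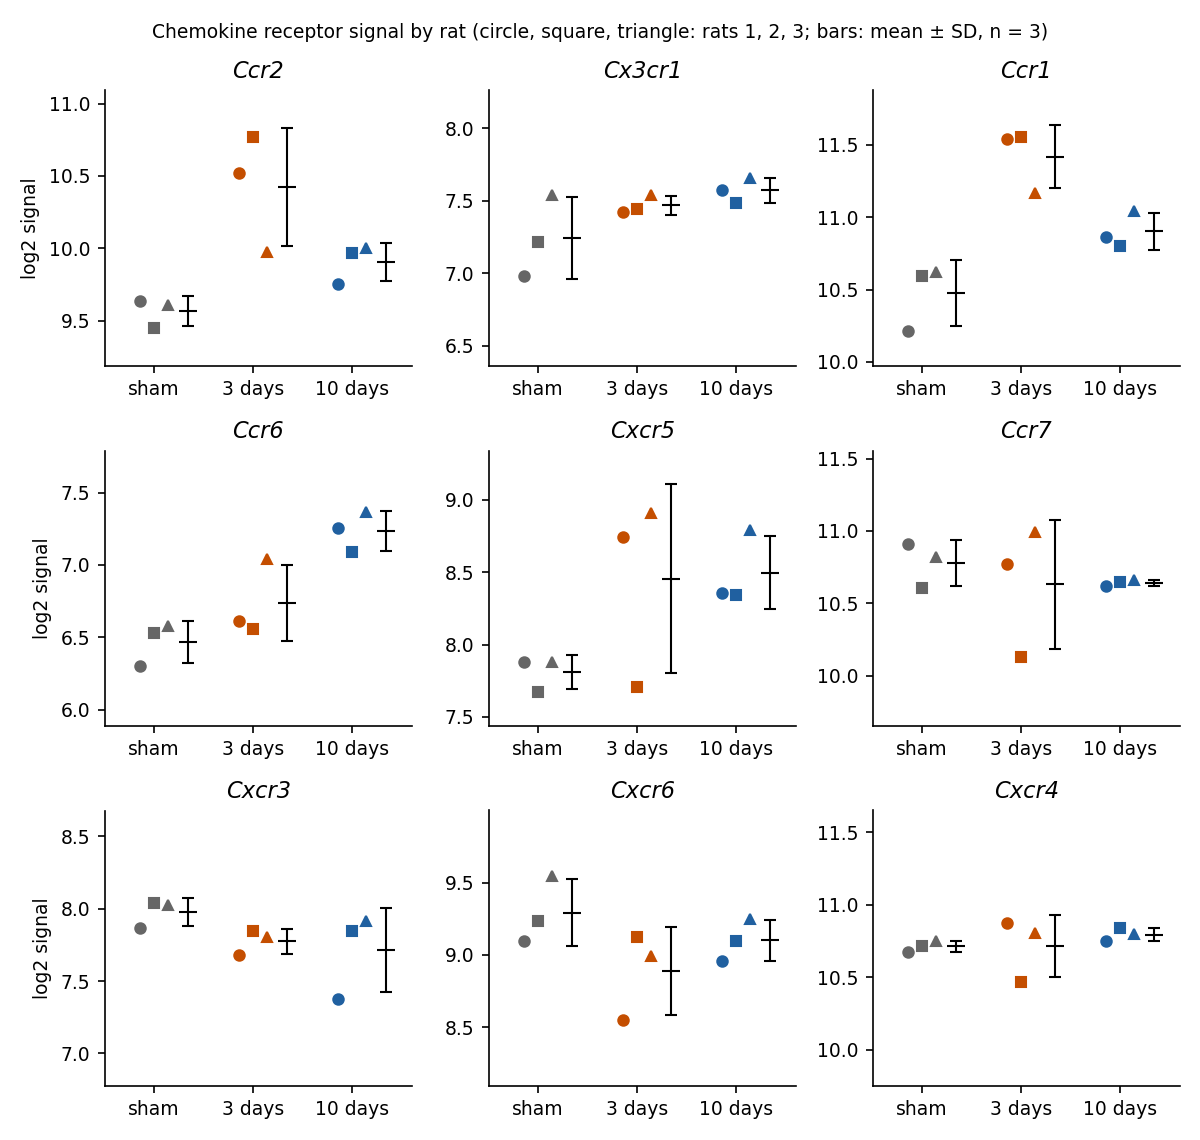
Log2 intensity (vertical axis) of each of the 9 receptors in every rat, in sham, PPVL day 3 and PPVL day 10; circles, squares and triangles are rats 1, 2 and 3, and bars give the mean ± SD (n = 3). Ccr1 and Ccr2 lie highest at day 3 with no overlap with sham, Ccr6 lies highest at day 10, and one day 3 rat with a Cxcr5 value of 7.71 sits among the sham rats.

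The promoters of the 3 receptors that were called are shown because these are the members that moved, and because transcription factors of the myeloid and lymphoid lineages have short recognition motifs that can be looked for in them. The sequences are from RefSeq on GRCr8, cover 250 bases before to 50 after the listed start, run 5′ to 3′ along the gene's strand, and carry motif matches in capitals.
Ccr1 (chr8:132439217-132439516, minus strand): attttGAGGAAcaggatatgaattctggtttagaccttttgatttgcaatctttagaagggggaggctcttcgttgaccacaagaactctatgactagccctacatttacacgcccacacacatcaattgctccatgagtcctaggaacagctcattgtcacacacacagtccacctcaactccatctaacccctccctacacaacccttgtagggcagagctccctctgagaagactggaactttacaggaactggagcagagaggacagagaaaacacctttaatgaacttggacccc
Ccr2 (chr8:132611953-132612252, plus strand): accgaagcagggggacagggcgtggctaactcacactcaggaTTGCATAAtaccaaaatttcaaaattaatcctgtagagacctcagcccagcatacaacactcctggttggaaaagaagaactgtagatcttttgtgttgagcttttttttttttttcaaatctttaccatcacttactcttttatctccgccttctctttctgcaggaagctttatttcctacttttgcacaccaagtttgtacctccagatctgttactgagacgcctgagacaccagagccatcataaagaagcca
Ccr6 (chr1:55046079-55046378, minus strand): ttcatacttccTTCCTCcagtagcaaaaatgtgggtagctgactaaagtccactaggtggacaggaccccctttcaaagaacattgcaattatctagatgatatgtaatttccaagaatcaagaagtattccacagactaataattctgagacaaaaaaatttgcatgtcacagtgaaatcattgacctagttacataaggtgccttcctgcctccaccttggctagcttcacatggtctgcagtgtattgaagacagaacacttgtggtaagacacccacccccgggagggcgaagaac
The capitals mark GAGGAA, the core bound by the myeloid and B cell factor PU.1, in Ccr1 from base -245 and in Ccr6, on the opposite strand, from base -239. In Ccr2 they mark a match to TTGCNNAA, a C/EBP motif, from base -208. The listed start lies 320 bases inside the annotated span of Ccr2 and 9729 bases inside that of Ccr6, so the annotated span of both genes begins further upstream than these windows.

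Promoter entries matched 7 of the 9 receptors, all except Ccr7 and Cxcr5, and both strands were searched for 4 motifs whose matches did not overlap. PU.1 (GAGGAA) was found in Ccr1, Ccr6 and Cxcr6, and it occurs in 27.6% of 33469 rat promoters of the same length. C/EBP (TTGCNNAA) was found in Ccr2 and occurs in 10.6%. AP-1 (TGANTCA) was found in Cxcr6 from base -19 and occurs in 7.33%, and the NF-kB motif (GGGA, any base, TTTCC) was in none of the 7 and occurs in 0.362%. A match describes letters in these windows and marks no bound site.

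Ccr2, the receptor for Ccl2, Ccl7 and Ccl12, had log2 values of 9.64, 9.45 and 9.61 in the sham rats, 10.52, 10.77 and 9.97 at day 3, and 9.75, 9.97 and 10.00 at day 10. Every ligated rat lay above every sham rat, and the third rat of day 3 lay well below the other two of its group. The day 3 mean of 10.42 ± 0.41 (SD, n = 3) exceeded the sham mean of 9.57 ± 0.10 by 0.85 ± 0.17 (95% interval 0.47 to 1.24), with an adjusted p of 0.0331. The day 10 mean of 9.91 ± 0.13 exceeded sham by 0.34 ± 0.17 (interval -0.05 to 0.72), with an adjusted p of 0.367. The day 3 call of Ccr2 was near the threshold: with 1 of the 9 arrays left out in turn it was kept in 2 fits, those without the third rat of day 3 or the first of day 10. The adjusted p was 0.0783, 0.110 and 0.0848 without sham rats 1, 2 and 3, 0.0825 and 0.0775 without day 3 rats 1 and 2, and 0.0575 and 0.0565 without day 10 rats 2 and 3. The difference stayed between 0.68 and 1.08 in all 9 fits. With only the sham and day 3 arrays in the fit the adjusted p was 0.104, and with a term for the replicate number it was 0.0661.

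Ccr1, which binds Ccl3, Ccl5, Ccl6 and Ccl9, had values of 10.21, 10.59 and 10.62 in sham rats, 11.54, 11.55 and 11.17 at day 3, and 10.86, 10.80 and 11.04 at day 10. The 3 groups did not overlap, and day 10 lay between sham and day 3. The day 3 mean of 11.42 ± 0.22 (n = 3) was 0.94 ± 0.14 above the sham mean of 10.48 ± 0.23 (interval 0.64 to 1.25), with an adjusted p of 0.00832. That call held without any one of the 9 arrays, at differences of 0.81 to 1.07 and adjusted p-values up to 0.0333; without the first sham rat, the lowest of its group, the difference was 0.81 with an adjusted p of 0.0177. At day 10 the mean was 10.90 ± 0.13 and the difference 0.43 ± 0.14, with an adjusted p of 0.167.

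Cx3cr1 was 6.98, 7.22 and 7.54 in sham rats, 7.42, 7.44 and 7.54 at day 3, and 7.58, 7.48 and 7.66 at day 10. The sham rats spread widely, and the highest of them reached the ligated rats. Its difference from sham was 0.22 ± 0.12 at day 3 (interval -0.05 to 0.50, adjusted p 0.440) and 0.33 ± 0.12 at day 10 (interval 0.05 to 0.60, adjusted p 0.230), so neither passed the test. One sham rat set much of the size: without the first sham rat the differences were 0.09 and 0.19, and without the third they were 0.37 and 0.47.

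Classical monocyte genes, listed here as markers of cells that carry Ccr2, were higher at day 3 as well. Whether they are particular to those cells in these isolates was not tested. Of 11 tested, 6 were called upward and none downward, with a median difference of 0.92; without single arrays 4 to 5 were called, and without the first sham rat 4, with a median of 0.75. They included fibronectin Fn1 (1.31 ± 0.10, adjusted p 0.000929), the integrin chain Itgam (0.89 ± 0.11, adjusted p 0.00392), versican Vcan (1.24 ± 0.17, adjusted p 0.00631) and Mgst1 (1.01 ± 0.16, adjusted p 0.0126). The mean centred level of the list was -0.72, -0.25 and -0.17 in the sham rats, 0.54, 0.55 and 0.31 at day 3, and 0.06, -0.13 and -0.17 at day 10. The first sham rat was far below the other two, every day 3 rat was above all the others, and day 10 overlapped with sham. At day 10 the difference of this level from sham was 0.30, and 0.13 without the first sham rat. At day 10 only Itgam of the 11 was called, 0.78 ± 0.11 above sham (adjusted p 0.0414), a call kept without any one day 3 rat and lost without any one of the other 6 arrays (adjusted p up to 0.143). Without the second day 3 rat the day 3 call of Mgst1 was lost, at an adjusted p of 0.0503. Some genes of other myeloid cells were called at day 3 too. Of 9 neutrophil genes 2 were called upward, the ficolin Fcnb (1.23) and the receptor Csf3r (1.04), at a median of 0.12, and 0.02 without the first sham rat. In that list 6 differences were positive and 3 negative, and Mmp9 lay below every sham rat in every day 3 rat, without a call. The level of that list was -0.66, 0.15 and 0.17 in the sham rats, 0.30, 0.42 and -0.04 at day 3, and 0.02, 0.01 and -0.38 at day 10, again with the first sham rat far below the other two. Of 16 macrophage genes 2 were called upward, Aif1 (0.88) and the lysozyme Lyz2 (0.37), at a median of 0.38 (0.21 without the third day 3 rat), and the level of that list was -0.22 to -0.18 in sham rats, -0.00 to 0.43 at day 3 and 0.02 to 0.07 at day 10. The Csf3r call was kept without the third rat of any one group and otherwise lost, at adjusted p-values up to 0.0978, and that of Lyz2 was lost without any one sham rat or the first or the second day 3 rat, at up to 0.0733. The part of all these cells in the Ccr2 and Ccr1 differences was not tested. Of 9 patrolling monocyte genes, which go with Cx3cr1, limma called none at either time, and their median differences were 0.13 and 0.20. An unadjusted p below 0.05 was seen for 3 upward and 1 downward at day 3 and for 3 upward at day 10. In that list Spn lay below every sham rat in every day 3 rat, without a call. That list ran from -0.19 to -0.08 in sham rats, -0.16 to 0.14 at day 3 and 0.06 to 0.20 at day 10.

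**Figure D2:**
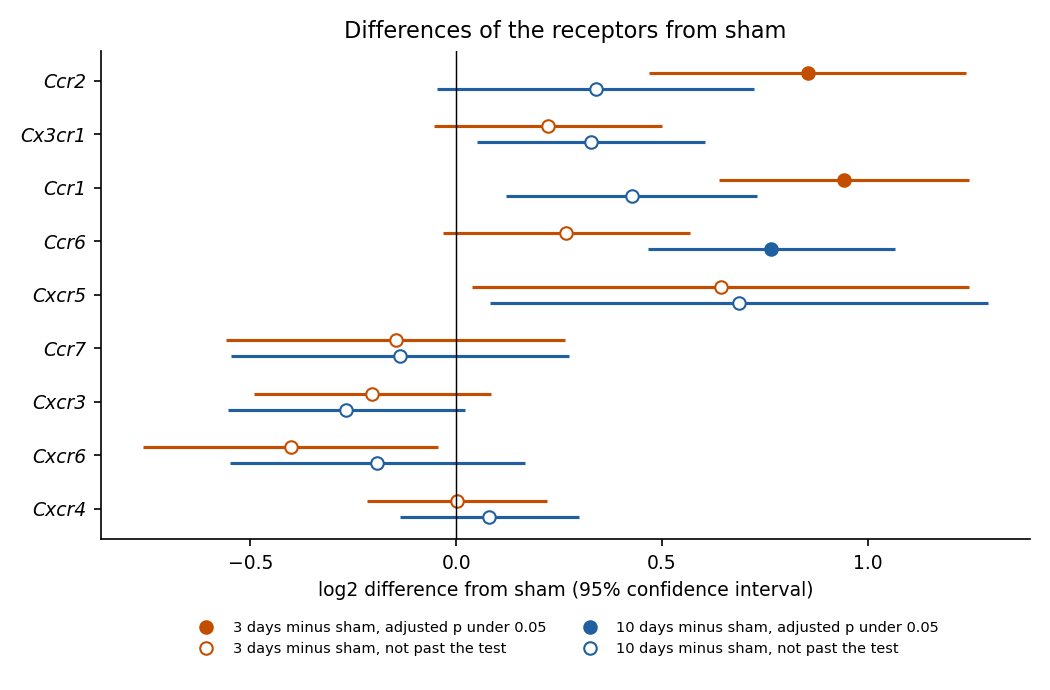
Log2 differences (horizontal axis) of the 9 receptors for PPVL day 3 minus sham (orange) and PPVL day 10 minus sham (blue), with lines for the 95% intervals from limma. Filled points passed the adjusted threshold: Ccr1 (0.94) and Ccr2 (0.85) at day 3 and Ccr6 (0.77) at day 10.

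Ccr6, the receptor for Ccl20 on B cells, T helper 17 cells and some dendritic cells, was 6.30, 6.53 and 6.58 in sham rats, 6.61, 6.56 and 7.04 at day 3, and 7.25, 7.09 and 7.37 at day 10. All day 10 rats lay above every other rat, while day 3 overlapped with sham. The day 10 mean of 7.24 ± 0.14 (n = 3) was 0.77 ± 0.13 above the sham mean of 6.47 ± 0.14 (interval 0.47 to 1.07), with an adjusted p of 0.0449. At day 3 the mean was 6.74 ± 0.26 and the difference 0.27 ± 0.13 (adjusted p 0.387), which was 0.12 without the third rat of that group. The day 10 call was kept in 2 of the 9 fits that left out an array, those without the first or the third rat of day 3. The adjusted p was 0.104, 0.0978 and 0.133 without sham rats 1, 2 and 3, 0.0516 without day 3 rat 2, and 0.153, 0.0614 and 0.138 without day 10 rats 1, 2 and 3. It was also lost, at 0.0576, when genes of low intensity were kept in the test, and, at 0.078, with a term for the replicate number. The difference itself stayed between 0.68 and 0.84 in the 9 fits.

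Cxcr5, which draws B cells and follicular helper T cells to Cxcl13, was 7.88, 7.67 and 7.88 in sham rats, 8.74, 7.71 and 8.91 at day 3, and 8.36, 8.35 and 8.79 at day 10. The day 10 rats lay above all sham rats, whereas at day 3 the second rat had a sham-like value and the other two did not. The differences were 0.64 ± 0.27 at day 3 (interval 0.04 to 1.25, adjusted p 0.288) and 0.69 ± 0.27 at day 10 (interval 0.08 to 1.29, adjusted p 0.246), and neither was called. Without the second day 3 rat the day 3 difference was 1.02 with an adjusted p of 0.0161, and without the third it was 0.41. Cxcr5 was among the most variable genes within groups: its pooled SD of 0.410 stood at percentile 99.4 of all tested genes, whose median was 0.108. The other members were above that median too, from percentile 64.2 for Cxcr4 to 96.6 for Ccr7. The called Ccr2, Ccr1 and Ccr6 stood at 95.6, 88.9 and 88.1.

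B cell genes were measured beside these receptors. At day 3, 2 of 10 tested were called upward, the complement receptor Cr2 (0.75 ± 0.14, adjusted p 0.0213) and Vpreb3 (0.83 ± 0.16, adjusted p 0.0285), and none downward, with a median difference of 0.41. The Cr2 call was lost without any one sham rat, and that of Vpreb3 without any one sham rat or the first or the third day 3 rat, at adjusted p-values up to 0.0704 and 0.101. At day 10 limma called none, although 9 of the 10 had an unadjusted p below 0.05 and a higher mean than sham, and the median difference was 0.54. The mean centred level of the list was -0.34 to -0.28 in sham rats, -0.09 to 0.36 at day 3 and 0.08 to 0.36 at day 10; at day 3 the second rat, low in Cxcr5, was also the lowest in this list and the third rat the highest. The part of B cells in the Ccr6 and Cxcr5 values was not tested.

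Ccr7, which brings mature dendritic cells and naive T cells to lymph nodes, was 10.91, 10.61 and 10.82 in sham rats, 10.77, 10.13 and 10.99 at day 3, and 10.62, 10.65 and 10.66 at day 10. The groups overlapped, the day 3 rats spanned all the others, and the day 10 rats were almost identical. The differences were -0.15 ± 0.18 (adjusted p 0.779) and -0.14 ± 0.18 (adjusted p 0.768), and without the second day 3 rat the first became 0.10. Of 7 mature dendritic cell genes limma called none at either time, and 2 had an unadjusted p below 0.05 at each.

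Cxcr3, the receptor for the interferon-induced ligands Cxcl9, Cxcl10 and Cxcl11, was 7.87, 8.04 and 8.03 in sham rats, 7.68, 7.85 and 7.80 at day 3, and 7.38, 7.85 and 7.91 at day 10. At day 3 every rat lay below every sham rat, by a narrow gap, and at day 10 the third rat reached the sham values. The differences were -0.20 ± 0.13 at day 3 (adjusted p 0.516) and -0.27 ± 0.13 at day 10 (interval -0.56 to 0.02, adjusted p 0.346). Without the first rat of day 10 the latter was -0.10.

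Cxcr6, the receptor for membrane-bound Cxcl16 on liver T cells and natural killer T cells, was 9.09, 9.23 and 9.55 in sham rats, 8.55, 9.12 and 8.995 at day 3, and 8.96, 9.09 and 9.25 at day 10. The groups overlapped, with the lowest value in the first rat of day 3 and the highest in the third sham rat. The differences were -0.40 ± 0.16 at day 3 (interval -0.76 to -0.04, adjusted p 0.257) and -0.19 ± 0.16 at day 10 (adjusted p 0.607). T cell genes had negative median differences too, -0.31 at day 3, when limma called none of 15 (10 had an unadjusted p below 0.05), and -0.46 at day 10, when Cd5 (-0.58 ± 0.10, adjusted p 0.0449) and Cd6 (-0.64 ± 0.12, adjusted p 0.0491) were called downward. Each of these calls was kept without the first or the third day 3 rat and lost without any one of the other 7 arrays, at adjusted p-values up to 0.159 for Cd5 and 0.174 for Cd6. The mean centred level of the T cell list was 0.14 to 0.34 in sham rats, -0.19 to 0.07 at day 3 and -0.25 to -0.10 at day 10. That of the natural killer cell list was 0.14 to 0.24 in sham rats, -0.29 to 0.18 at day 3 and -0.26 to -0.15 at day 10. The part of either cell type in the Cxcr3 and Cxcr6 values was not tested.

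Cxcr4, the receptor for Cxcl12, was the least variable member. It was 10.68, 10.72 and 10.75 in sham rats, 10.88, 10.47 and 10.80 at day 3, and 10.75, 10.84 and 10.80 at day 10. The groups overlapped at day 3, where the second rat was the lowest of all 9. The differences were 0.00 ± 0.10 at day 3 (interval -0.22 to 0.22, adjusted p 0.996) and 0.08 ± 0.10 at day 10 (adjusted p 0.741), so a change beyond 0.22 in either direction at day 3 lay outside the interval.

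**Figure D3:**
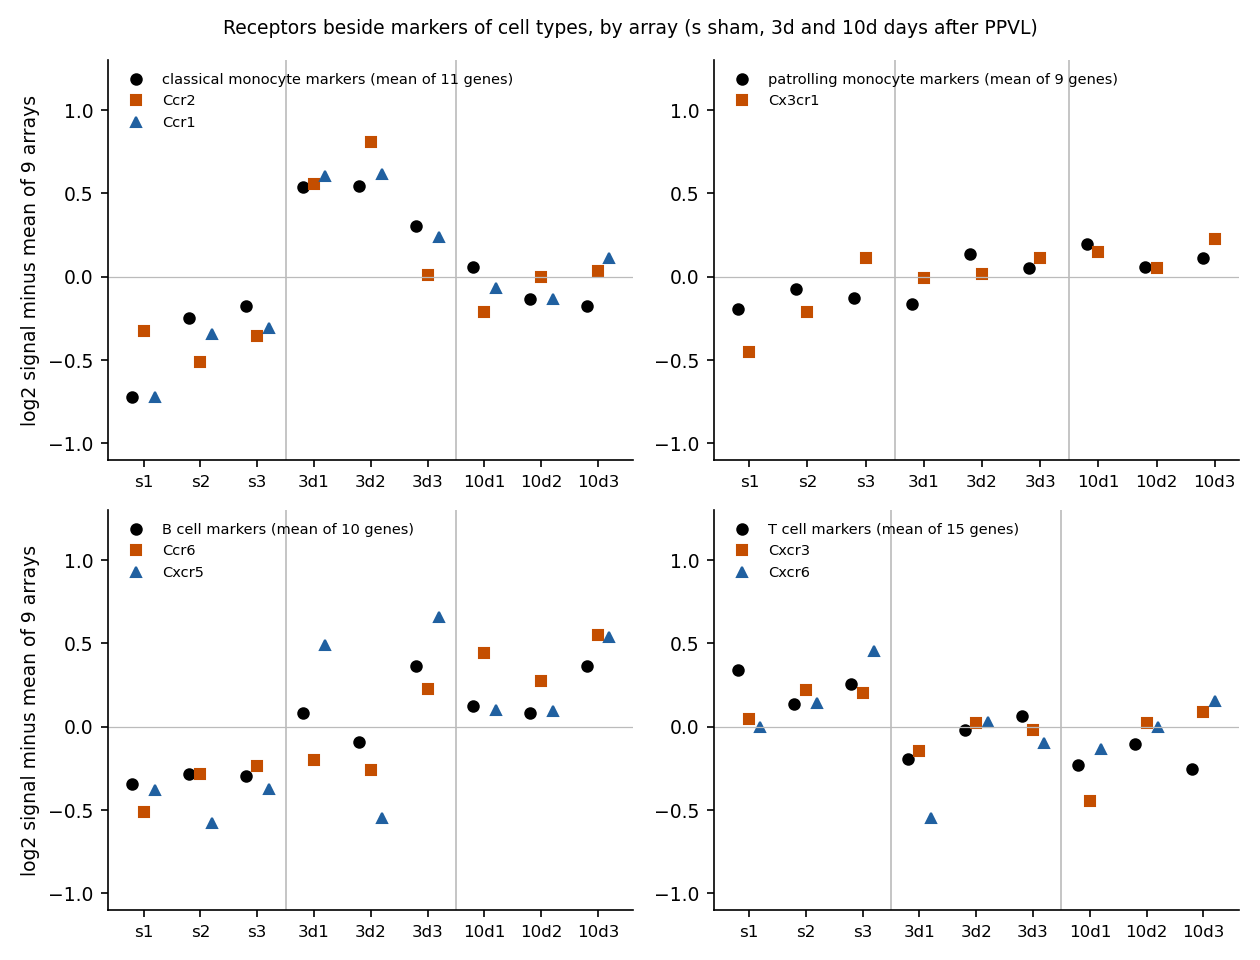
Log2 signal minus the mean of the 9 arrays (vertical axis) in every rat (horizontal axis; s sham, 3d day 3, 10d day 10) for 4 marker lists (black circles, mean over the list) and the receptors set beside them (orange squares and blue triangles). Classical monocyte genes are highest at day 3 (0.31 to 0.55), B cell genes are higher in ligated than in sham rats, and T cell genes are highest in sham rats (0.14 to 0.34).

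Counting non-overlap alone, 3 of the 9 receptors had groups that did not overlap at day 3 (Ccr1 and Ccr2 upward, Cxcr3 downward), where 18.8% of all tested genes had, 10.1% upward and 8.66% downward. At day 10 it was 4 of 9 (Ccr1, Ccr2, Ccr6 and Cxcr5, all upward), where 21.0% of genes had non-overlapping groups and 9.88% upward ones. For one gene, exact permutation of 3 and 3 rats reaches a two-sided p of 0.1 at best. At an unadjusted p below 0.05, 4 members stood out at day 3 (Ccr1, Ccr2, Cxcr5 and Cxcr6) and 4 at day 10 (Ccr1, Ccr6, Cx3cr1 and Cxcr5), where 15.5% and 16.2% of all tested genes did.

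The direct comparison of day 10 with day 3 gave no call among the 9 receptors by limma, where 0.0714% of genes, 10 in all, were called, 0.0214% upward, leaving 7 of the 10 downward. At an unadjusted p below 0.05 there were 3 members, against 11.3% of genes. These were Ccr1, whose difference was -0.52 ± 0.14 (adjusted p 0.250), Ccr2 (-0.51 ± 0.17, adjusted p 0.329) and Ccr6, which was higher by 0.50 ± 0.13 (adjusted p 0.259). For Ccr1 and Ccr6 the 2 ligated groups did not overlap, for Ccr2 they met at the third day 3 rat, and 14.6% of all genes had non-overlapping groups here, 6.90% upward and 7.74% downward. Among the classical monocyte genes Fn1 was called, at -0.78 ± 0.10 (adjusted p 0.0324), and the list's median difference was -0.62. The Fn1 call was kept without the first sham rat or the third day 3 rat and lost without any one of the other 7 arrays, at an adjusted p of up to 0.187. Cxcr5 differed by 0.04 ± 0.27, an estimate too wide to separate a rise from a fall.

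Other chemokine receptors were measured alongside. Of 9 tested from a list of 14, limma called none in any of the 3 comparisons, and the median differences were -0.06 at day 3 and 0.04 at day 10. At an unadjusted p below 0.05 there were 3 at day 3, 1 at day 10 and 2 between the ligated groups. Ccr9, a receptor of gut-homing lymphocytes and plasmacytoid dendritic cells, had values of 6.97, 7.51 and 7.62 in sham rats, 6.14, 6.89 and 6.88 at day 3, and 6.71, 6.32 and 6.17 at day 10. All ligated rats lay below all sham rats, at differences of -0.73 and, at day 10, -0.96 (adjusted p 0.0897), which did not pass the test. Ccrl2, an atypical receptor that does not signal through G proteins, differed by 0.46 at day 3 with an adjusted p of 0.222.

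Several of these receptors are neighbours. On the rat assembly GRCr8, chromosome 8 carries Cxcr6, Xcr1, Ccr1, Ccr3, Ccr1l1 and Ccr2 in that order, pseudogenes aside. Ccr1 and Ccr2 were called upward at day 3, while Ccr1l1, a Ccr1-like gene named here for its position, differed by 0.46 ± 0.20 (adjusted p 0.320), Xcr1, the receptor of cross-presenting dendritic cells, by -0.21 ± 0.10 (adjusted p 0.373), and Cxcr6 by -0.40 ± 0.16 (adjusted p 0.257), so that the calls in this cluster were upward alone. Ccr3 lay below the filter, with a mean of 3.33. Whether the probesets of the related genes share sequence was not tested.

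Ligands of the 9 receptors showed no call by limma in any of the 3 comparisons, among 15 tested of 17; Cxcl12 and Cxcl13, which bind Cxcr4 and Cxcr5, were below the filter. At an unadjusted p below 0.05, 4 ligands were higher and 1 lower at day 3, 1 was higher and 2 lower at day 10, and 2 were lower at day 10 than at day 3. Median differences were -0.01 and 0.08.

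The 3 ligands of Ccr2 had their highest means at day 3. Ccl7 was 9.40, 9.98 and 9.94 in sham rats, 10.90, 10.44 and 10.28 at day 3, and 9.65, 10.08 and 10.28 at day 10. Day 3 lay above all sham rats, at a difference of 0.77 ± 0.21 (adjusted p 0.102). Without single arrays that difference ran from 0.58 to 0.90. Ccl12 likewise did not overlap with sham at day 3 and differed by 0.68 ± 0.17 (adjusted p 0.0733), and Ccl2 differed by 0.32 ± 0.08 (adjusted p 0.085). At day 10 these 3 differences were 0.23, 0.29 and 0.14.

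Among ligands of Ccr1, Ccl6 was 11.47, 11.54 and 11.60 in sham rats, 11.57, 11.87 and 11.98 at day 3, and 11.92, 11.94 and 12.08 at day 10. Day 10 lay above sham without overlap, at 0.44 ± 0.10 (adjusted p 0.0705). Ccl3 differed by 0.07 and 0.03 and Ccl9 by 0.07 and 0.16, while Ccl5, also a T cell product, differed by -0.24 and -0.30 (adjusted p 0.234 and 0.152). Cxcl10, which binds Cxcr3, was 8.65, 8.51 and 8.35 in sham rats and 7.01, 8.50 and 8.04 at day 3. One day 3 rat was far below the others, and the difference of -0.66 ± 0.34 (adjusted p 0.406) was -0.24 without the first day 3 rat. Ccl20, the ligand of Ccr6, differed by 0.08 and 0.13, Cxcl16, that of Cxcr6, by -0.01 and 0.19, and Ccl19 and Ccl21, those of Ccr7, by -0.19 to -0.03 over both times. Without single arrays the Cxcl16 difference ran from -0.27 to 0.17 at day 3 and from -0.07 to 0.38 at day 10, so its sign turned at both times. No ligand difference passed the test.

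**Figure D4:**
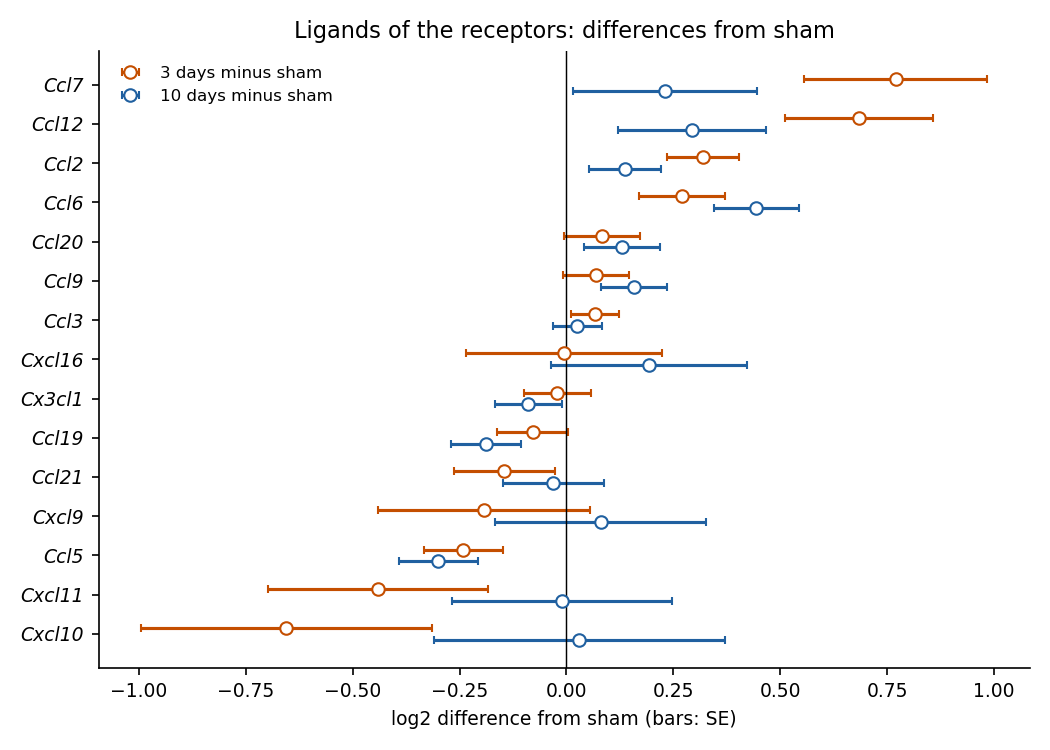
Log2 differences (horizontal axis, bars give the SE) of the 15 tested ligands of the 9 receptors at PPVL day 3 (orange) and day 10 (blue) against sham. The ligands of Ccr2 (Ccl7 at 0.77, Ccl12 at 0.68 and Ccl2 at 0.32) lie to the right of 0 at day 3, and none of the 15 passed the adjusted threshold.

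Of 25 tested genes that carry signals from these receptors, 2 were called at day 3, both upward. Tiam1, an exchange factor that activates Rac, was 8.29, 8.50 and 8.45 in sham rats and 9.13, 9.07 and 8.86 at day 3, a difference of 0.61 (adjusted p 0.0116). Plcb2, a phospholipase that G protein subunits activate, differed by 0.37 (adjusted p 0.0162), a call lost without the second sham rat at 0.0638. Neither group of day 3 values overlapped with sham, and at day 10 limma called none of the 25, 8 of them with an unadjusted p below 0.05.

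Genes whose profiles over the 9 arrays lay closest to a member were found by the root mean square distance between centred log2 values, for the 4 members whose values ranged over more than 1. For Ccr1 they were Ass1 (distance 0.074), Tm4sf19, Adamts3, Lgals3 and Gas2l3 (0.106), and for Ccr2 they were Lrp12 (0.125), Ccl12, Tm4sf19, Adamts3 and Gatm (0.154). The Ccr1 and Ccr2 profiles shared 2 of these neighbours, and Ccl12 is itself a Ccr2 ligand. For Ccr6 they were Prkag2 (0.144), Gnrh1, Cd72, Hsd11b1 and Blk (0.173), of which Cd72 and Blk are B cell genes. For Cxcr5 they were Gsta6 (0.112), Lax1, Hpgds, Pacc1 and Bcar3 (0.180). All 4 sets describe these 9 arrays and were not tested.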

How the data were processed

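The authors deposited log2 values from robust multi-array averaging (RMA), and RMA and Transcriptome Analysis Console are named per the submitters' processing notes, with versions and the background settings not given in the sources used here. Of 36685 probesets, 18511 carried 1 gene symbol, 575 several and 17599 none; the highest-mean probeset stood for each gene. Genes with a mean of at least 4.16, the 30th percentile over probesets, entered the test, made with limma 3.58.1 in R 4.3.3 on all 9 arrays, which share one estimate of spread (6 residual and 3.59 prior degrees of freedom), after the fit was tested on simulated data. RMA shrinks differences at low intensity, and precision is limited by how few arrays there are (median SE 0.0861). The sample titles number the arrays within each group, and each array was taken as 1 rat, so the p-values measure the spread between these arrays. The members and the 14 gene lists (183 genes, 153 tested) were chosen with earlier results of these data known; of each list up to 4 genes were named, by smallest p, besides all members and ligands, and 5 nearest profiles per member. Macrophage genes Csf1r, Cd68 and others named to check the cell type, T and B cell genes Cd3e and Cd79a, and Ccr1l1 lie outside that rule. Promoters are from RefSeq (GRCr8). Alternatives were other filters, normalization, moderation, groups, a replicate block and leaving out each array; the latter was added for the gene lists after the data were seen.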

Additional observations from a re-analysis of the deposited data

How the results depend on the processing

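The number of receptors called at day 3 was 2, but 1 when only sham and day 3 arrays were fitted, 1 with the replicate block and 1 to 2 without single arrays; at day 10 it was 1, but 0 without the filter on low values, 0 with the replicate block and 0 to 1 without single arrays. Between the ligated groups it was 0 in every fit (3 unadjusted in limma's fit of all arrays). Over all genes the 401 calls of day 3 became 134 with 2 groups, 264 with the replicate block and 190 to 327 without single arrays. The 103 of day 10 became 0 without the filter (2498 at an unadjusted p below 0.05 by limma), 173 with the filter at the 50th percentile, 170 after quantile normalization, 173 with an intensity trend and robust moderation, 61 with 2 groups, 0 with the replicate block (2163 unadjusted) and 0 to 140 without single arrays. The 10 between ligated groups became 3 with 2 groups, 0 with the replicate block (1511 unadjusted) and 0 to 18 without single arrays. With the replicate block the adjusted p was 0.0661 for Ccr2 at day 3 and 0.078 for Ccr6 at day 10, and with 2 groups it was 0.104 for Ccr2; the cause was not tested. The labels state no pairing by number. Arrays of one number had correlations of deviations from -0.0950 to 0.0837, most of them negative. Those of different numbers ran from -0.127 to 0.167. Only the second sham array was closest to an array of its own number. With 3 arrays per group, these values cannot settle whether arrays of one number shared a processing step. Quantile normalization turned the Cxcr4 difference at day 3 to -0.023. Without single arrays the sign turned for Ccr7 (-0.33 to 0.10) and Cxcr4 (-0.077 to 0.13) at day 3, and between ligated groups for Ccr7 (-0.24 to 0.19), Cxcr3 (-0.16 to 0.10), Cxcr4 (-0.045 to 0.16) and Cxcr5 (-0.33 to 0.27), none of them called in those comparisons. Of the single-receptor results, 219 kept direction and call status without single arrays, 14 lost a call, 1 gained one and 9 turned sign. Under the other alternatives 184 kept both, 4 lost a call and 1 turned sign. Most results that kept both were differences without a call that stayed without one. The only calls to lose were Ccr1 and Ccr2 at day 3 and Ccr6 at day 10. Without single arrays these were kept in 9, 2 and 2 of 9 fits.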

Other observations

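Lists of further cell types gave these values. Dendritic cell genes had 3 of 6 tested called downward at day 3, with a median difference of -0.48. They were the growth factor receptor Flt3 (-1.12), the dead-cell receptor Clec9a (-0.67) and the transcription factor Irf8 (-0.38). In that list 5 differences were negative and 1 positive, at 0.30, with an unadjusted p below 0.05 by limma but no call. Flt3 was 8.59, 9.26 and 9.28 in sham rats and 7.68, 8.05 and 8.04 at day 3, without overlap. The Clec9a call was lost without the second or the third sham rat, at adjusted p-values up to 0.0636. Natural killer cell genes had none of 11 called by limma at either time, at medians of -0.18 and -0.42, with 2 and 7 at an unadjusted p below 0.05. Limma also called none of 5 hepatocyte genes (0 unadjusted at either time) and none of 5 endothelial and stellate genes (0 and 1 unadjusted).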
